A study of Mus musculus with 8 samples.

Results

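The Ms4a cluster of mouse chromosome 19 was followed here through 9 of its genes, Ms4a1, Ms4a7, Ms4a4c, Ms4a4b, Ms4a6c, Ms4a6b, Ms4a4d, Ms4a6d and Ms4a2 in chromosomal order, out of 21755 protein-coding genes of the autosomes and chromosome X and beside 10 other Ms4a genes of the same chromosome. Each gene was taken as its GENCODE gene body with 5 kb on either side in mm10, and the 9 windows spanned chr19:11244675-11628719. The study sequenced the CpG methylation of resting CD43- B cells and of naive CD4+ CD62L+ T cells, sorted as CD44lo CD25-, from the spleens of C57BL/6J mice aged 6 to 8 weeks, by whole-genome oxidative bisulfite sequencing, which reads methylcytosine without hydroxymethylcytosine. All mice were unmodified inbred animals of this strain, and no treatment separated the groups. The 8 samples fell into 4 groups of 2, B and T cells of females and B and T cells of males. The 2 samples of a group shared 1 deposited table, so that each group gave 1 set of values, called a library here, and each cell type 2. Whether a table holds reads of 1 or of both samples is not given in the sources used here, and every sample pooled cells of several mice. Differences between individual mice could therefore not be seen. With 1 library in each group, no spread within a group could be measured. The p-values given here rest on the spread between libraries that the terms of each fit leave over, estimated over many features together.

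MS4A proteins cross the membrane several times, and their genes lie side by side as products of tandem duplication. They are known above all as surface molecules of blood cells. Ms4a1 encodes CD20, a marker of B cells, whereas Ms4a4b and Ms4a6b are known from T cells and the Ms4a4b protein associates with the co-stimulatory receptor GITR. Ms4a2 encodes the beta chain of the high-affinity IgE receptor of mast cells and basophils, and Ms4a6c, Ms4a6d, Ms4a4c and Ms4a7 are known from monocytes and macrophages. Methylated CpGs are the usual state of the mouse genome outside promoters and enhancers, and active regulatory DNA of a cell type is commonly unmethylated in it.

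The 4 tables listed 19595981 to 20197082 CpGs with 280919817 to 354634149 reads at them. 18684786 CpGs of the autosomes and chromosome X were listed in all 4 libraries, and only these were compared. In the 9 windows together the genome holds 1355 CpGs, of which 1306 were listed in at least 1 library and 1121 in all 4, with 13753 to 16489 reads a library. The median CpG of a member window had 10 to 17 reads, against 14 to 17 over the autosomes. The cluster was poor in CpGs, with 3.64 to 6.28 compared CpGs per kb in the 9 windows and a median of 10.9 over all gene windows. The cell labels were checked on the promoters of marker genes. All 5 B cell markers (Cd79a, Cd79b, Cd22, Blk and Fcrla) were called lower in B cells and all 5 T cell markers (Cd3d, Cd3e, Cd247, Lck and Cd5) lower in T cells, the latter at 0.566% to 7.65% in T cells. Of 7 monocyte and macrophage markers 1 was called, Mpeg1, which was lower in B cells (-21.3 points, B cells minus T cells). The markers not called went both ways. Lyz2 was at -16.8 points (adjusted p = 0.000926 by edgeR) and Itgam at 13.0 points (adjusted p = 0.00226), both under the minimum difference for promoters. Fcgr1 was at 9.72, Cd14 at 2.60, Csf1r at -1.81 and Adgre1 at -6.40 points, each with an adjusted p above 0.05. Of 5 mast cell and basophil markers 0 were called. The levels of the 7 monocyte and macrophage markers ran from 12.2% to 90.6% in female B cells and from 11.5% to 91.5% in female T cells, and those of the mast cell and basophil markers from 2.84% to 91.6% and from 1.72% to 90.9%. Their part in the results below was not tested.

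The RefSeq promoters, from 250 bases before to 50 bases after each transcript start in GRCm38.p6 (the assembly of mm10), showed how few CpGs the cluster offers at its starts. They are printed 5' to 3' along the gene, with CG pairs in capitals, for the pairs of genes with related promoters and for Ms4a7, which had the most CG pairs.
Ms4a4b, chr19:11443308-11443607, plus strand: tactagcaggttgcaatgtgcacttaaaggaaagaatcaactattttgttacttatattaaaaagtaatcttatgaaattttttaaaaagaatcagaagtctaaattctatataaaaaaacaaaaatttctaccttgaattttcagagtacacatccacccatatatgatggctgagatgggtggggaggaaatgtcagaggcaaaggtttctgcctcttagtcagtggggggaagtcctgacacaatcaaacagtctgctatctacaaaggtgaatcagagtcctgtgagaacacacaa
Ms4a4c, chr19:11407411-11407710, plus strand: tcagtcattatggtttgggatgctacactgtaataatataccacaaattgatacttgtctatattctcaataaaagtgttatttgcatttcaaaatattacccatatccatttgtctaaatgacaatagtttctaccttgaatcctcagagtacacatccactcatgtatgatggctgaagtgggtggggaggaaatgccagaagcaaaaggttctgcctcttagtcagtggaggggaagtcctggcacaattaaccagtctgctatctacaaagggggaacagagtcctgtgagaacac
Ms4a6b, chr19:11518309-11518608, plus strand: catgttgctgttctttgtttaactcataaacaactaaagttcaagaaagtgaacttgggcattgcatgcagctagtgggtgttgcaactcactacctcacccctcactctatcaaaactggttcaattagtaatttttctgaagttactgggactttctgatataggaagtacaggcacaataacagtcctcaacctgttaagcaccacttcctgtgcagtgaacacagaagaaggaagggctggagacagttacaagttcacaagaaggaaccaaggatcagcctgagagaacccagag
Ms4a6c, chr19:11469118-11469417, plus strand: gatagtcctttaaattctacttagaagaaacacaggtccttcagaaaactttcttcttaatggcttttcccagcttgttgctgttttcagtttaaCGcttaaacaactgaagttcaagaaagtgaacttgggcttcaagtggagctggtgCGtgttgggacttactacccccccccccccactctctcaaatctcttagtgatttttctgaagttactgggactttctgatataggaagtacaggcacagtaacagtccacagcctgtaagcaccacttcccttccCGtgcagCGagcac
Ms4a7, chr19:11336097-11336396, minus strand: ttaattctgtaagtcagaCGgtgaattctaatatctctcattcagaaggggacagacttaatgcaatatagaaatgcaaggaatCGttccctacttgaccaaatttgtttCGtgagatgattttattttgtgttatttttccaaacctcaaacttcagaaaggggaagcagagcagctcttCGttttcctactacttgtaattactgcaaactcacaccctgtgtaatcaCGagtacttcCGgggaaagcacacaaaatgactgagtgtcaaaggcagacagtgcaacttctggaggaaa
The Ms4a4b, Ms4a4c and Ms4a6b promoters held 0 CG pairs each, the Ms4a6c promoter 4 and the Ms4a7 promoter 6. With end gaps free, the Ms4a6c and Ms4a6b promoters aligned over 233 columns with 81.5% identity and shared a run of 48 identical bases, and none of the 4 CG pairs of Ms4a6c was a CG pair in Ms4a6b. The Ms4a4c and Ms4a4b promoters aligned over 301 columns with 74.4% identity and a longest shared run of 20 bases. Among the other 26 pairs of the 8 member promoters in the table, which has 2 for Ms4a7, the longest shared run was 13 bases. Promoter methylation is given below for 1 kb on either side of the GENCODE start. The printed Ms4a4c promoter belongs to a RefSeq start 2.89 kb from that start, and 1 kb on either side of it held 3 compared CpGs, too few for the test.

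Of 13 elements in the windows that were low in 1 cell type only, the 6 of at most 300 bases are shown next. Each is a stretch from the first to the last CpG of at least 4 neighbouring CpGs that were each under 50% in 1 cell type, with both sexes' reads summed and gaps of at most 1000 bases, and that met no such stretch in the other cell type. The mean level of the other cell type could still be under 50%. It was 46.6% in T cells at chr19:11263307-11264067 of Ms4a1 and 47.3% in B cells at chr19:11479280-11480168 of Ms4a6c.
Ms4a1 intron, low in B cells, chr19:11264805-11264896, minus strand: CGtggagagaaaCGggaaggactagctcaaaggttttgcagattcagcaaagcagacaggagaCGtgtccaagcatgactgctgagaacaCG
Ms4a4b, over an exon, low in T cells, chr19:11459145-11459256, plus strand: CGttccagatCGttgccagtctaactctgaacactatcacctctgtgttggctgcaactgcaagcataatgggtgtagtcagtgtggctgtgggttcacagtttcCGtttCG
Ms4a4b intron, low in T cells, chr19:11462342-11462418, plus strand: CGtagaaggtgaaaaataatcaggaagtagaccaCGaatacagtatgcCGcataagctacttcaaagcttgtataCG
Between Ms4a4b and Ms4a6c, low in T cells, chr19:11467936-11468206, plus strand: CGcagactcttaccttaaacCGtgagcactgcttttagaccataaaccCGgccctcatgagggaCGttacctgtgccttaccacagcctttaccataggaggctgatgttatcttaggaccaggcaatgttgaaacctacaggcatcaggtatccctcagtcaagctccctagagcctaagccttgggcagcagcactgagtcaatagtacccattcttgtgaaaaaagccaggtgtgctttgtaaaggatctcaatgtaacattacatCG
Ms4a6c, over an exon, low in T cells, chr19:11471051-11471287, plus strand: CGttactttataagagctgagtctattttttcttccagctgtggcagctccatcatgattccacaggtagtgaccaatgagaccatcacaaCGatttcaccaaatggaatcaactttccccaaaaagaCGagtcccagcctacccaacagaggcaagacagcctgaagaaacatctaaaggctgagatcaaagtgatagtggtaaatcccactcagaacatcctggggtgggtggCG
Ms4a6d intron, low in T cells, chr19:11601306-11601522, minus strand: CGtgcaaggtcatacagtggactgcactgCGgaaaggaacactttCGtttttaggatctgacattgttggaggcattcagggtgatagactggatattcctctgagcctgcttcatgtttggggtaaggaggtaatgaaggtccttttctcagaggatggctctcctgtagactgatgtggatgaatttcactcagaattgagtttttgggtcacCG
Their 4 or 5 CpGs are the capitals, and their levels are given with the genes below.

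The comparison of B with T cells asked whether neighbours in 1 cluster carry the methylation of different cell types. Ms4a1 was lower in B cells, Ms4a4b, Ms4a6b, Ms4a6c and Ms4a4d were lower in T cells, and the other 4 genes were not called. The methylation level of a window is the percent of reads methylated over its compared CpGs, and differences are in percentage points, B cells minus T cells. A window was called at a Benjamini-Hochberg adjusted p under 0.05 over all 21553 windows tested, from edgeR's quasi-likelihood test with cell type and sex as terms, together with a difference of at least 10 points. All 9 members passed the coverage limits, and 5 of 9 (55.6%) were called. By edgeR without a sex term these 5 had an adjusted p of 9.15e-06 to 0.000531. Of all gene windows 3.79% were called lower in T cells and 0.158% lower in B cells, against 4 members and 1 member. Without the 10-point minimum 7 of the 9 members passed, against 34.7% of all windows. The median difference of the members was 7.06 points and that of all windows 1.76 points. Intervals in parentheses are 95% Wilson intervals of a library's reads. They cover counting error only. A read over several CpGs was counted at each of them, and the intervals take these counts as independent. They can therefore be too narrow, above all where CpGs lie close together. Where a pair of values is given for a cell type, the female library comes first and the male library next.

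**Figure D1:**
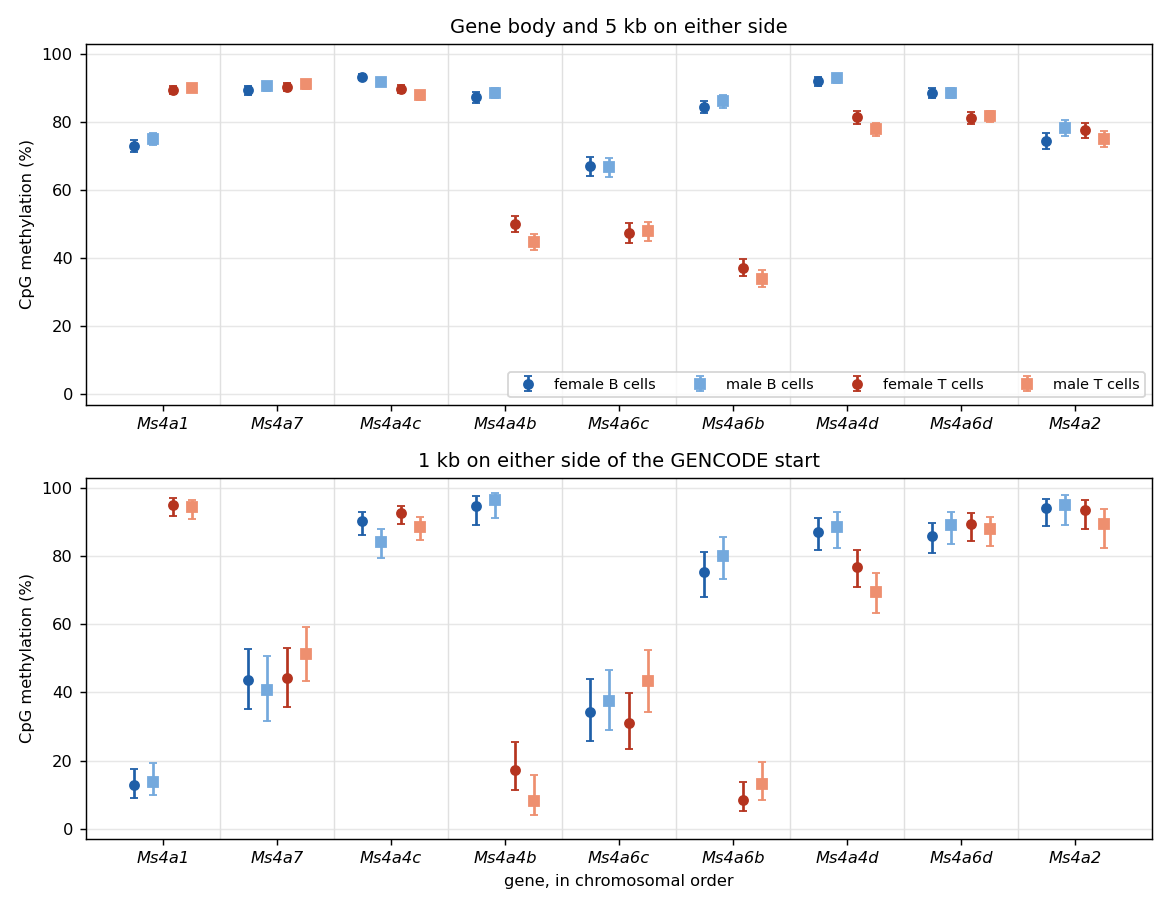
CpG methylation (percent of reads) of the 9 genes in chromosomal order, over the gene body with 5 kb on either side (top) and over 1 kb on either side of the GENCODE start (bottom). Each point is 1 library (circles female, squares male, blue B cells, red T cells) with its 95% Wilson interval; the Ms4a1 promoter is at 12.7% and 13.8% in B cells and at 95.2% and 94.4% in T cells, and the Ms4a4b and Ms4a6b promoters lie the other way round.

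Ms4a1, the CD20 gene, was the member with lower methylation in B cells. Its window stood at 73.0% (71.2 to 74.8) and 75.1% (73.2 to 76.9) in B cells, and T cells had 89.5% (88.3 to 90.6) and 90.1% (88.9 to 91.1). Both B cell libraries lay below both T cell libraries, by 16.5 points in females and 15 points in males. The difference of -15.7 points had an adjusted p of 3.61e-08, and 10 of the 21553 windows had a more negative one. The promoter, 1 kb on either side of the start with 14 compared CpGs, was at 12.7% (9.05 to 17.6) and 13.8% (9.79 to 19.1) in B cells, whereas T cells had 95.2% (92.0 to 97.2) and 94.4% (90.9 to 96.6). This difference of -81.5 points reached an adjusted p of 8.54e-104, and 0.41% of 20501 promoters were called lower in B cells (adjusted p under 0.05 and at least 20 points). In the promoter and tile fits all features shared 1 estimate of the spread, and the very small p-values rest on it. For the Ms4a1, Ms4a4b and Ms4a6b promoters the adjusted p was 0.00281, 0.00617 and 0.00505 with limma, and 0.00133, 0.0054 and 0.00532 by edgeR without a sex term. The low stretch over the start, chr19:11266151-11267175 with 11 CpGs, was almost without methylation in B cells, at 0.515% (0.0911 to 2.86) of 194 reads in females and 2.31% (0.903 to 5.79) of 173 reads in males. In T cells the same CpGs were at 94.1% and 94.0%. The CpG of largest difference, at -772 bases from the start, was at 0% of 15 and 16 reads in B cells and at 100% of 10 and 12 reads in T cells. The intron sequence shown above, 1391 bases inside the gene, repeated the pattern with 6.49% (2.81 to 14.3) and 11.8% (5.51 to 23.4) in B cells against 88.8% (81.8 to 93.3) and 95.5% (88.9 to 98.2) in T cells. A further stretch in the intron, chr19:11263307-11264067, was lower in B cells but not full in T cells, at 22.9% and 19.2% against 47.8% and 45.3%.

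Ms4a4b, a gene of T cells, was lower in T cells in its promoter, its gene body and both flanks. Its window was at 50.1% (47.7 to 52.4) and 44.8% (42.4 to 47.2) in T cells, whereas B cells had 87.3% (85.7 to 88.8) and 88.6% (87.0 to 90.1). The difference of 40.5 points had an adjusted p of 1.2e-10, and 13 windows of the genome had a larger one. The promoter fell from 94.9% (89.3 to 97.6) and 96.5% (91.3 to 98.6) in B cells to 17.3% (11.3 to 25.4) and 8.05% (3.95 to 15.7) in T cells, 83.0 points with an adjusted p of 7.51e-53. Among all promoters 0.956% were called lower in T cells. Around the 300 bases without a CG pair, the low stretch chr19:11443282-11446175 held 16 CpGs over 2894 bases from the start into the gene. T cells had 1.42% (0.482 to 4.08) of 212 reads and 1.16% (0.319 to 4.14) of 172 reads methylated there, and B cells 96.3% and 91.9%. Farther in, at chr19:11459145-11459256 over an exon, methylation of T cells was 26.5% (14.6 to 43.1) in females and 40.7% (29.1 to 53.4) in males against 95.3% and 100% in B cells. The intron sequence shown above was at 8.47% (3.67 to 18.4) and 3.39% (0.935 to 11.5) against 78.3% and 94.1%. The intergenic sequence between Ms4a4b and Ms4a6c was at 17.2% (9.88 to 28.2) and 6.35% (3.25 to 12) in T cells and at 88.8% and 93.8% in B cells. Its CG pairs at bases 49 and 65 were at 100% in both B cell libraries and at 0% in both T cell libraries, and the last was the least divided, at 61.3% in B cells and 40% in T cells with both sexes summed.

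Ms4a6b, the other T cell gene, had the largest difference of the cluster. The window was at 37.3% (34.8 to 39.9) and 34.1% (31.7 to 36.5) in T cells, compared with 84.5% (82.6 to 86.2) and 86.2% (84.3 to 88.0) in B cells. The difference of 49.7 points had an adjusted p of 3.47e-11, and 2 gene windows of the genome had a larger one. The region around the GENCODE start was at 8.38% (5.06 to 13.6) and 13.0% (8.49 to 19.4) in T cells against 75.3% (68.0 to 81.4) and 80.3% (73.2 to 85.8) in B cells, 67.1 points apart (adjusted p = 2.13e-45; 64.8 points and 0.0527 without the female T cells, or 1.41e-06 in that fit on autosomes only). The RefSeq start lies 2.05 kb downstream, and there the T cells were at 0% of 168 and 183 reads, which allows up to 2.24% and 2.06% by the Wilson interval, while B cells were at 40.7% (33.6 to 48.3) and 41.6% (33.3 to 50.4). The promoter printed above belongs to this second start. In B cells the methylation around it was itself low, and a stretch of 8 CpGs at chr19:11517025-11518771 stood at 12.4% (7.78 to 19.2) and 14.3% (8.70 to 22.6), with 0% in both T cell libraries. In T cells the low stretch was far longer, chr19:11515451-11522247 with 40 CpGs, at 3.79% (2.52 to 5.68) of 580 reads and 4.36% (3.03 to 6.23) of 642 reads. B cells were at 73.5% and 77.8% over the same 40 CpGs. Ms4a6b thus had a region low in both cell types inside a wider region low in T cells, whereas the starts of Ms4a1 and Ms4a4b were low in 1 cell type and nearly full in the other.

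**Figure D2:**
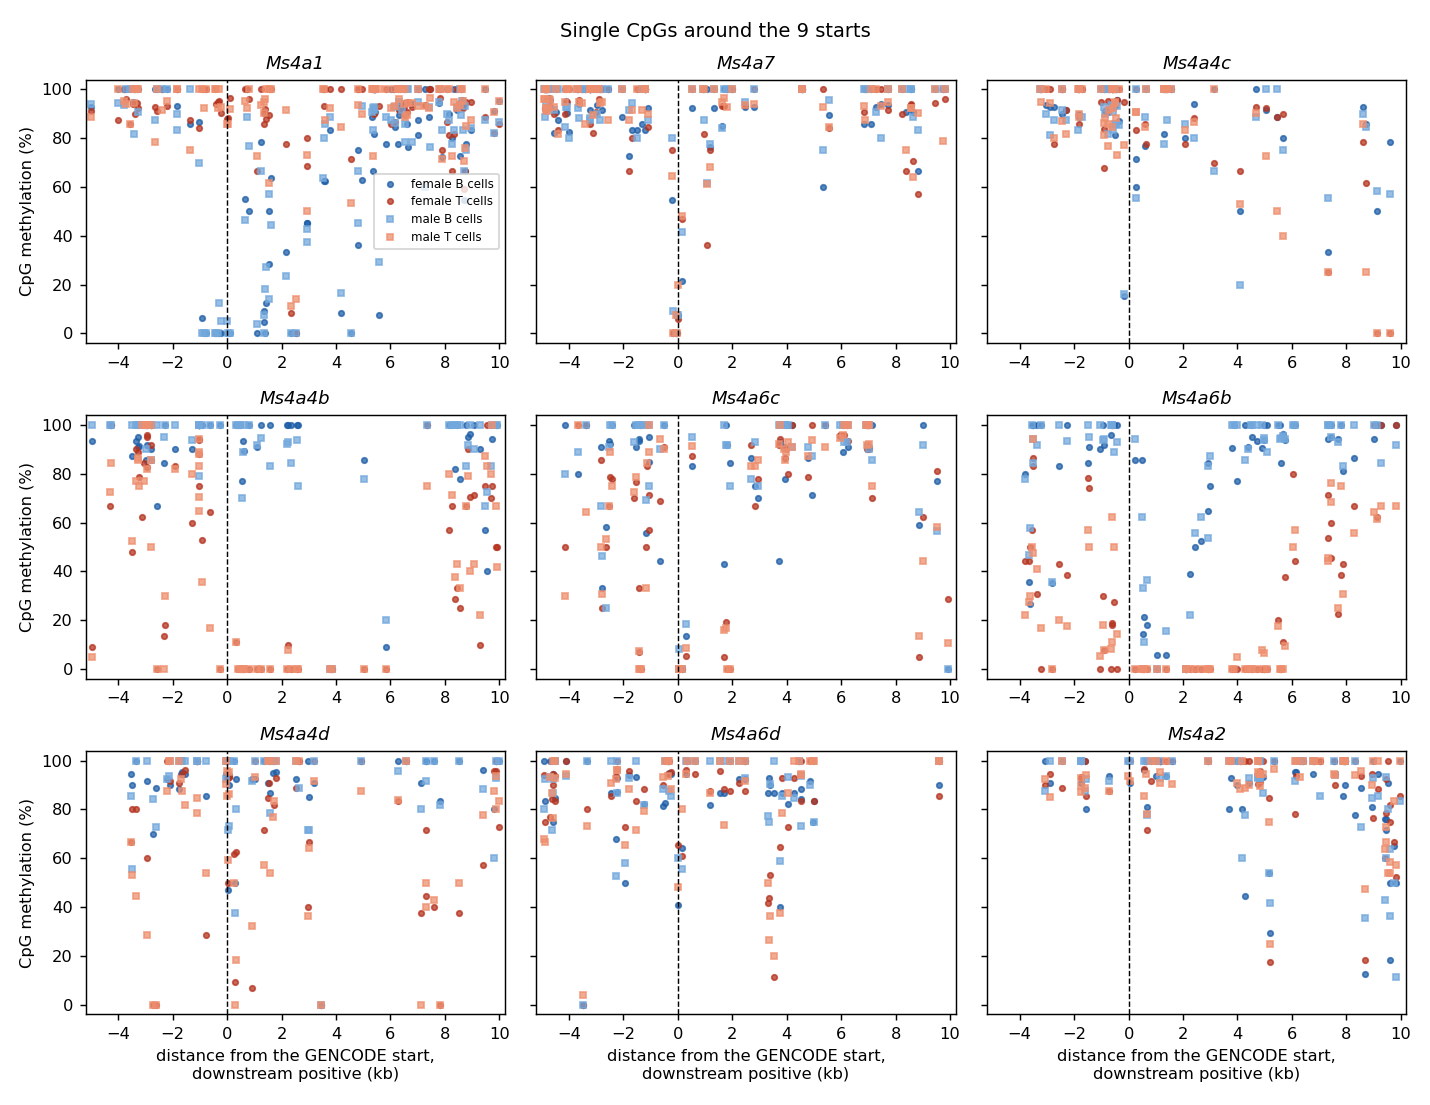
Methylation (percent of reads) of single CpGs against the distance from each gene's GENCODE start in kb, positive downstream, with 1 point for each library (blue B cells, red T cells, circles female, squares male). B cells lie near 0% around the Ms4a1 start and T cells near 0% just downstream of the Ms4a4b and Ms4a6b starts, while a few CpGs at the Ms4a7 and Ms4a6c starts are low in all 4 libraries.

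Ms4a6c, known from monocytes and macrophages, lies directly behind Ms4a4b and was called lower in T cells by its window and not by its promoter. The window was at 67.2% (64.3 to 69.9) and 66.8% (63.9 to 69.5) in B cells, and T cells had 47.4% (44.5 to 50.3) and 47.9% (45.1 to 50.8), 19.3 points with an adjusted p of 3.12e-06. The windows of Ms4a4b and Ms4a6c shared 30 CpGs, and without these the difference of Ms4a6c was 10.9 points. Without the CpGs that lie in the window of any other protein-coding gene it was 8.43 points (adjusted p = 0.00452), under the 10-point minimum. The promoter was at 34.3% (25.8 to 43.9) and 37.5% (29.1 to 46.7) in B cells against 31.1% (23.5 to 39.9) and 43.2% (34.4 to 52.5) in T cells, with overlapping libraries and an adjusted p of 0.922. An exon at its start carried a stretch low in both, chr19:11469404-11469653, at 5.26% (1.81 to 14.4) and 8.11% (3.77 to 16.6) in B cells and 2.63% (0.725 to 9.10) and 3.28% (0.904 to 11.2) in T cells. The cell types parted farther in. The sequence shown above, 1803 bases from the start, was at 83.7% (70.0 to 91.9) and 90.5% (77.9 to 96.2) in B cells against 7.58% (3.28 to 16.5) and 9.43% (4.10 to 20.3) in T cells. At the far end, a stretch of 11 CpGs at chr19:11483390-11485930, where GENCODE places the start of the processed transcript BE692007, was between 2.27% and 7.51% in all 4 libraries.

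Ms4a4d followed Ms4a6b and was lower in T cells by a smaller amount. The window was at 92.2% (90.8 to 93.4) and 93.1% (91.6 to 94.3) in B cells against 81.5% (79.5 to 83.3) and 77.9% (75.8 to 79.8) in T cells, and the difference of 12.9 points had an adjusted p of 6.22e-07. Its promoter differed by 14.8 points (adjusted p = 0.000181), under the minimum of 20 points for promoters, and all 5 CG pairs of its RefSeq promoter were at 54.5% or above in both cell types, with both sexes summed. Farther in, the stretch chr19:11544112-11545328 in an intron was at 22% (12 to 36.7) and 27.9% (16.7 to 42.7) in T cells against 94.7% (82.7 to 98.5) and 95.7% (85.8 to 98.8) in B cells.

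Ms4a4c and Ms4a6d passed the adjusted p and missed the 10-point minimum. Ms4a6d was at 88.7% (87.2 to 90.0) and 88.6% (87.0 to 90.0) in B cells against 81.3% (79.5 to 83.0) and 81.9% (80.2 to 83.4) in T cells, 7.06 points with an adjusted p of 0.000142. Of its 143 compared CpGs 50 lay in 1 kb, chr19:11593001-11594000, at 94.0% to 94.9% in all 4 libraries. Its promoter was at 85.9% to 89.4% in all 4 libraries, and the intron sequence shown above was at 36.5% (25.7 to 48.9) and 35.2% (23.8 to 48.5) in T cells and at 88.9% and 85.2% in B cells. A second stretch, chr19:11589314-11590140, was nearly empty in T cells, at 1.18% (0.208 to 6.37) and 3.70% (1.27 to 10.3), and partial in B cells, at 52.4% (41.8 to 62.7) and 49.2% (37.1 to 61.4). Ms4a4c, the neighbour with the promoter most like that of Ms4a4b, was at 93.3% (92.3 to 94.2) and 91.9% (90.7 to 92.9) in B cells against 89.7% (88.4 to 90.8) and 87.9% (86.6 to 89.1) in T cells. They were 3.82 points apart (adjusted p = 0.00119). With at least 10 reads per CpG this was 0.712 points (adjusted p = 0.645), and the adjusted p was 0.0724 without the female B cells and 0.0992 without the male T cells. Of the 204 compared CpGs of Ms4a4c, 23 and 26 lay in chr19:11423001-11424000 and chr19:11425001-11426000, at 92.5% to 97.1% in all 4 libraries. Away from the printed promoter, the region around its GENCODE start was between 84.2% and 92.6% with a difference of -3.34 points (adjusted p = 0.253). Within 500 bases of the start it was -15.2 points, lower in B cells (adjusted p = 0.000978) and under the minimum of 20 points. The called tile of Ms4a4c lay behind the gene, at chr19:11428001-11429000, at 27.3% (16.3 to 41.8) and 38.8% (28.0 to 50.8) in T cells against 95.9% and 93.3% in B cells. A single CpG at -184 bases from its GENCODE start, chosen after its values were seen, went the other way. It was at 15.4% (4.33 to 42.2) of 13 reads and 16.0% (6.4 to 34.7) of 25 reads in B cells and at 95% and 77.4% of 20 and 31 reads in T cells.

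Ms4a7 and Ms4a2 did not pass the test of their windows. Ms4a7 was at 89.5% (88.1 to 90.7) and 90.5% (89.1 to 91.8) in B cells against 90.5% (89.2 to 91.6) and 91.1% (89.9 to 92.2) in T cells, with a difference of -0.784 points and an adjusted p of 0.518. Like that of Ms4a6c, its promoter was partly methylated in every library, at 43.8% (35.3 to 52.7) and 40.8% (31.6 to 50.7) in B cells and 44.2% (35.6 to 53.1) and 51.4% (43.3 to 59.3) in T cells. Within the printed promoter the CpG nearest the 5' end had 69.2% in B cells against 69.0% in T cells, whereas the 4 other CpGs compared were at 0% to 12.5%, with both sexes summed. A second RefSeq start of the gene, 1.45 kb downstream, was at 88.5% to 93.6% in the 4 libraries. Ms4a2 was at 74.6% (72.2 to 76.8) and 78.4% (75.9 to 80.8) in B cells against 77.6% (75.3 to 79.8) and 75.1% (72.8 to 77.4) in T cells, 0.121 points apart (adjusted p = 0.991), and its signs in females and males were opposite. Its promoter was at 89.5% to 95.1%. The level of the Ms4a2 window was lowered by its downstream flank, at 46.9% to 54.2%, where 9 CpGs at chr19:11611418-11611968 were at 7.43% to 10.3% in all 4 libraries and no annotated gene lies. Beside that stretch 1 CpG, 11229 bases from the Ms4a2 start, was at 0% of 13 reads in each T cell library and at 78.6% (52.4 to 92.4) and 73.3% (48.0 to 89.1) in B cells.

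**Figure D3:**
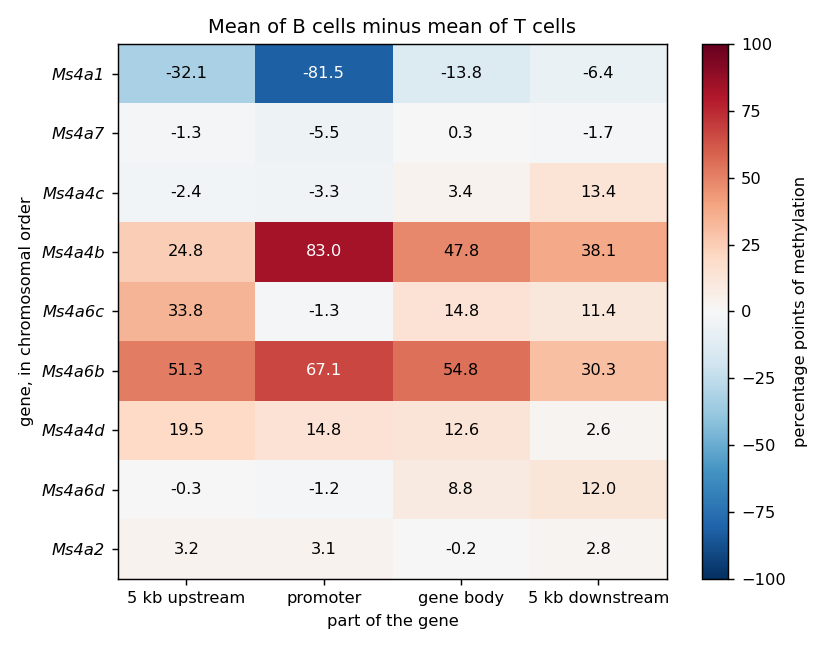
Difference in methylation (mean of the 2 B cell libraries minus mean of the 2 T cell libraries, in percentage points) for 4 parts of each gene, in chromosomal order; blue is lower in B cells and red lower in T cells. Ms4a4b and Ms4a6b are red in all 4 parts, Ms4a6c is at 33.8 points upstream and at -1.26 in its promoter, and Ms4a1 is at -81.5 in its promoter and at -6.44 downstream.

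The parts of the genes showed where each difference lay. The promoter overlaps both the 5 kb upstream and the gene body. In Ms4a1 the difference was -81.5 points in the promoter, -32.1 in the 5 kb upstream, -13.8 in the gene body and -6.44 downstream. Upstream it ended sharply, with -65.0 points in chr19:11267001-11268000 and 1.76 points in chr19:11268001-11269000. In Ms4a4b and Ms4a6b the difference reached through the gene body, with 47.8 and 54.8 points, and into both flanks. In Ms4a4c and Ms4a6d the 5 kb downstream held the largest value, 13.4 and 12 points. Promoters of 3 of the 9 members were called, Ms4a1 lower in B cells, against 0.41% of all promoters, and Ms4a4b and Ms4a6b lower in T cells, against 0.956%.

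Neighbours were then compared directly, by a test of whether the cell type effect differed between a gene and the next member. Shared CpGs were left out. The test compared ratios of methylated to unmethylated reads, whereas the minimum and the values below are differences in percentage points. Of 8 pairs of neighbours 5 (62.5%) were called at an adjusted p under 0.05 and at least 10 points, against 5.66% of 20556 pairs over the genome. All 8 passed the adjusted p alone. Without the 10-point minimum more than 5.66% of the pairs over the genome passed too, and their number is given in the last paragraph. Other protein-coding genes lie between the members of 3 pairs, Gm8369 between Ms4a6c and Ms4a6b and Ms4a4a between Ms4a7 and Ms4a4c among them. Ms4a1 and Ms4a7 differed by -14.9 points (adjusted p = 6.35e-05), with Ms4a5 and Ms4a14 between them. Ms4a4c and Ms4a4b, whose starts lie 38.8 kb apart, differed by -36.7 points (adjusted p = 4.43e-06), Ms4a4b and Ms4a6c by 31.6 points (adjusted p = 4.43e-06), Ms4a6c and Ms4a6b by -30.4 points (adjusted p = 3.81e-06) and Ms4a6b and Ms4a4d by 43.6 points (adjusted p = 2.19e-05). The last pair is the closest of the 5, with 20.3 kb between starts. Without the 16 CpGs they share, Ms4a6b differed between the cell types by 54.1 points and Ms4a4d by 10.6 points. The 3 pairs not called were Ms4a7 and Ms4a4c at -4.60 points, Ms4a4d and Ms4a6d at 5.87 points and Ms4a6d and Ms4a2 at 6.94 points. Opposite signs of B minus T were found in 1 of the 8 pairs, Ms4a7 and Ms4a4c, which was not called. The 5 called pairs differed in the size of the difference and not in its sign. All of these but Ms4a1 and Ms4a7 held Ms4a4b or Ms4a6b. Along the chromosome the larger differences of Ms4a4b and Ms4a6b stood between the smaller ones of Ms4a4c, Ms4a6c and Ms4a4d, of which Ms4a6c and Ms4a4d were called themselves.

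**Figure D4:**
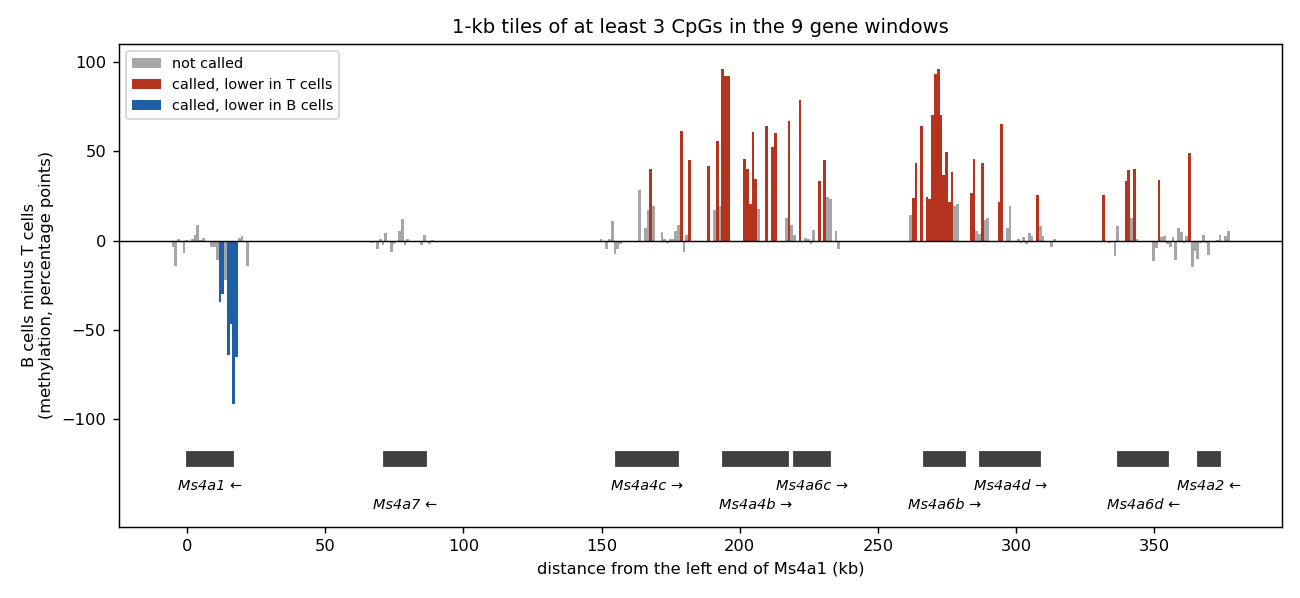
Difference in methylation (B cells minus T cells, percentage points) of 1-kb tiles with at least 3 CpGs in the 9 windows, against the distance in kb from the left end of Ms4a1, with gene bodies as dark boxes and arrows for their direction. Blue tiles, called lower in B cells, lie in the Ms4a1 window (6 tiles), and red tiles, called lower in T cells, lie from Ms4a4c to Ms4a2 (45 tiles); gray tiles were not called.

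Along the cluster in 1-kb tiles of at least 5 CpGs, 106 tiles were tested and 24 were called at an adjusted p under 0.05 and at least 20 points. Of these 20 (18.9%) were lower in T cells, against 2.36% of 1530528 tiles over the genome, and 4 were lower in B cells, against 0.812%. All 4 lay in the Ms4a1 window. Because the cluster has few CpGs, the same was done with tiles of at least 3 CpGs, where 45 of 174 were lower in T cells and 6 in B cells, against 2.11% and 0.708% over the genome. By this count Ms4a4b and Ms4a6b had 15 tiles each lower in T cells, Ms4a4d 6, Ms4a6d 5, Ms4a6c 4, Ms4a4c 3, Ms4a2 1 and Ms4a7 0, with tiles of overlapping windows counted in both. In the tile chr19:11266001-11267000 at the Ms4a1 start, B cells were at 0% of 147 reads and 3.03% (1.18 to 7.53) and T cells at 93.0% and 93.2% (adjusted p = 6.21e-92). In the tile chr19:11521001-11522000 of Ms4a6b, T cells were at 0% of 95 reads and 1.74% (0.478 to 6.12) and B cells at 96.0% and 97.3% (adjusted p = 1.71e-79). In the tile chr19:11444001-11445000 of Ms4a4b, T cells were at 0% of 80 and 62 reads and B cells at 92.1% and 92.6% (adjusted p = 4.22e-52). The called tile of Ms4a6c, chr19:11467001-11468000, covers the end of Ms4a4b, and T cells were at 36.0% and 25.3% in it against 96.7% and 98.6% in B cells (adjusted p = 3.98e-33). The called tiles of largest difference in Ms4a4d and Ms4a6d were partial in T cells, with 38.3% and 48.5% in chr19:11534001-11535000, which Ms4a4d shares with Ms4a6b, and 50% and 42.9% in chr19:11601001-11602000 of Ms4a6d. A called tile just inside the Ms4a4d start, chr19:11537001-11538000, was at 41.8% and 39.7% in T cells. B cells had 84.5% and 84.4% there (43.7 points, adjusted p = 1.01e-07 by edgeR).

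Of 549 CpGs in the windows with at least 10 reads in every library, 50 (9.11%) were at least 50 points lower in both T cell libraries than in both B cell libraries, and 16 (2.91%) were lower in both B cell libraries. Over the autosomes the shares were 0.598% and 0.261% of 12583482 CpGs. Ms4a6b had 22 of 50 such CpGs lower in T cells, Ms4a4b 20 of 54, Ms4a6c 7 of 40, Ms4a4d 4 of 52, Ms4a6d 3 of 79 and Ms4a4c and Ms4a2 1 each, with CpGs of overlapping windows counted in both genes. Ms4a1 had 15 of 93 lower in B cells, Ms4a4c had the 1 named above and Ms4a7 had 0 of 79 either way. At 2 CpGs each of Ms4a4b, Ms4a6b and the stretch between Ms4a4b and Ms4a6c, both B cell libraries were at 100% and both T cell libraries at 0%, of 10 to 28 reads. The CpG of largest difference in Ms4a4d, in an intron, was at 83.3% and 81.8% in B cells and at 0% of 19 and 18 reads in T cells. That of Ms4a6d, in an exon, was at 83.3% and 100% in B cells with 6.25% and 21.4% in T cells, and that of Ms4a4c, behind the gene, at 100% in both B cell libraries with 15.4% and 35.3% in T cells. In Ms4a7 it went the other way, at 47.8% and 65% in B cells with 94.7% and 95.7% in T cells, and did not reach 50 points. Low stretches of at least 4 CpGs numbered 15 in T cells and 8 in B cells. 10 of the 15 (66.7%) were found in T cells only, against 27.8% of 83057 such stretches over the autosomes, and 3 of the 8 (37.5%), all in Ms4a1, in B cells only, against 19% of 74683.

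The promoters and stretches were searched on both strands for short motifs of factors known from blood cells. The PU.1 and ETS motif GAGGAA was in the printed promoters of Ms4a7, Ms4a4c and Ms4a4b and in 28.3% of 32851 RefSeq promoters. The octamer ATGCAAAT was in the Ms4a4c promoter (1.74% of all), as was the RUNX motif TGTGGT (16.8%). The TCF and LEF motif CTTTGA was in the promoters of both starts of Ms4a7 and of Ms4a4d (16.0%) and the GATA motif AGATAA in that of Ms4a2 (11.2%). The E-box CAGGTG (20.2%) and the EBF1 motif (0.904%) were in 0 of the 8 member promoters, and no matches overlapped. For the 21 distinct low stretches, 300 bases around the middle were searched, which took in bases beside a stretch where it was shorter. GAGGAA and CTTTGA were found in 7 each, against 37.6% and 19.3% of 4337 other stretches of chromosome 19. TGTGGT was found in 4 (27.2%), AGATAA in 2 (11.5%) and the octamer, the E-box and the EBF1 motif in 1 each (1.64%, 24.6% and 1.41%).

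Of the other 10 Ms4a genes of the chromosome, 0 windows were called, and 1 of them passed the adjusted p, Ms4a4a, which lies between Ms4a7 and Ms4a4c. Its window differed by 8.43 points (adjusted p = 0.00149). Its promoter was called lower in T cells, at 65.5% (55.1 to 74.7) and 55.2% (47.1 to 63.2) against 90.1% (83.5 to 94.2) and 86.9% (79.2 to 92.0) in B cells (28.1 points, adjusted p = 9.54e-08). The 8 compared CpGs in the 5 kb downstream of Ms4a4a were at 23.8% (16.7 to 32.8) and 41.5% (31.4 to 52.3) in T cells against 79.5% (69.6 to 86.8) and 72.7% (63.2 to 80.5) in B cells, a difference of 43.5 points that was not tested on its own. The windows of the other 9 lay between -0.331 and 0.977 points, with adjusted p of 0.408 or above.

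Female minus male differences of the 9 windows ran from -1.32 to 1.97 points, and 0 passed the edgeR test at an adjusted p under 0.05 or at an unadjusted p under 0.05, the lowest adjusted p being 0.452 for Ms4a4c. Over the genome 0.705% of windows were called. In 8 of 9 members the sign of the B minus T difference did not depend on sex. This difference was 37.2 points in females and 43.8 in males for Ms4a4b, and 47.2 and 52.2 for Ms4a6b. With 1 library in each group, a test of this difference between the sexes could be fitted only without the sex term, so that differences between the sexes counted as error, and neither test shows that the sexes were alike. The test of the difference gave 0 members at either p, and 0.0% of all windows were called, with the 10-point minimum set on the mean of female B and male T cells minus that of female T and male B cells. Over all windows there were 2 at an adjusted p under 0.05 and 298 at an unadjusted p under 0.05 by edgeR and 0 and 454 by limma.

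Outside the family, the genes with window levels most like those of the called members were found by the root mean square distance over the 4 libraries. For Ms4a1 these included Blnk at 2.24 points and Fcrla at 2.64 points. For Ms4a4b they were Ccr8 at 3.57, Cd3e at 4.57 and Cd5 at 4.84 points, and for Ms4a6b they included Cd247 at 3.14 and Slfn1 at 4.23 points. Ms4a6c was closest to Laptm5 (1.31), Mbnl1 (1.39) and Vamp1 (1.43), and Ms4a4d to Lime1 (1.66), Tnfrsf4 (1.78) and B130006D01Rik (2.00).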

How the data were processed

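Whole-genome oxidative bisulfite reads of 8 samples, deposited as 4 tables, were handled by the authors with Trim Galore, FastQC and Bismark 0.13.1 on mm10, as listed in the submitters' processing notes. The deposited tables give for each CpG the methylation level as a fraction and the count of reads, with CpGs under 5 reads absent, and levels rounded up to 3 decimals. Methylated read counts were recovered by rounding level times reads down, and for 100% of values the level was that of a whole number of reads within the rounding of the level. Gene bodies and starts came from GENCODE, promoter sequences from RefSeq (GRCm38.p6), which had entries for Ms4a2, Ms4a4b, Ms4a4c, Ms4a4d, Ms4a6b, Ms4a6c and Ms4a7 (7 of 9 members).

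Reads were summed over CpGs present in all 4 libraries, in features with at least 5 such CpGs and 20 reads in each library. Methylated and unmethylated counts were tested with edgeR 4.0.16 (glmQLFit and glmQLFTest, R 4.3.3), with terms for library, cell type and sex (for the cell type difference between sexes, that contrast in place of sex), Benjamini-Hochberg adjusted over all features of a kind, and the fit was tested on simulated data. limma 3.58.1 was an alternative. Promoter alignments scored 1 for a match, -1 for a mismatch and -2 for a gap. Members, lists and tests were chosen with earlier results of these data known. Named were all members, their called tile and their CpG (at least 10 reads) of largest difference, the 3 most alike genes of each called member and called genes of the family. A gene alike to Ms4a1 and a gene alike to Ms4a6b are not reported here. RNA was not analysed here.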

Additional observations from a re-analysis of the deposited data

How the results depend on the processing

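The 5 called gene windows were also 5 for gene bodies without flanks, with at least 10 reads per CpG, without CpGs over 60 reads, without a sex term, with limma and without any 1 library (5 to 5), 7 without a minimum difference and 2 at 20 points. Without CpGs of another gene's window they were 4, Ms4a6c falling under the minimum, an alternative chosen after seeing the data. Of the 3 promoters, 1 was called within 500 bases (5 of 9 tested) and 1 with at least 10 reads per CpG (6 tested), where too few CpGs remained. 2 were called at RefSeq starts, where Ms4a1 has no entry, and 2 to 3 without 1 library, since Ms4a6b was at 64.8 points with an adjusted p of 0.0527 without the female T cells. All 3 were called in the same fits on autosomes only, which were chosen after seeing the data. The 24 tiles became 37 without a minimum, 51 of 174 with at least 3 CpGs, 7 of 47 with at least 10 reads per CpG and 22 to 26 without 1 library. The 5 pairs became 8 without a minimum, against 3718 of 20556 pairs over the genome, and stayed at 5 to 5 without 1 library. The 66 CpGs became 122 at 5 reads per CpG and 76 to 86 without 1 library, and the 13 stretches of 1 cell type became 23 with at least 3 CpGs. Of the single genes and pairs under the alternatives, 348 values kept their side of the threshold, 6 passed it anew and 5 no longer passed. 0 called values turned, and values not called turned for the Ms4a7 and Ms4a2 windows and the Ms4a6c and Ms4a6d promoters under some alternatives. Over the genome the calls went from 851 gene windows to 7477 without a minimum and 133 at 20 points, from 280 promoters to 4080 without a minimum, 661 at RefSeq starts and 39 to 170 without 1 library (269 to 274 on autosomes only), from 48490 tiles to 142715 without a minimum, 13564 at 40 points and 30670 with limma, from 1164 pairs to 3718 without a minimum and 629 to 1159 without 1 library, and from 152 windows between the sexes to 282 without a minimum and 79 with limma. Fits without 1 library had no sex term, and the lone library of a cell type was assumed to vary like the others. The labels do not say whether B and T cells came from the same mice, so no analysis paired by mouse was possible. In the main fit the sex term set B against T cells of the same sex. The few CpGs of the cluster and 1 library per group set the precision.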
